A study of Rattus norvegicus with 138 samples.

Results

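The nucleus of the solitary tract (NTS) of the spontaneously hypertensive rat (SHR) was compared with that of its control line, the Wistar Kyoto (WKY) rat, at 8 wk of age, gene by gene, with RNA-seq of tissue punches. The comparison rests on 10 of the 46 NTS libraries, from 5 female SHR/NHsd rats and 5 female WKY/NHsd rats, and its members are the 13793 genes tested of the 32883 genes listed. The rats were housed singly, the labels name no treatment, and at this age SHRs are regarded as prehypertensive. Each rat gave 1 library per region, from punches taken on both sides, and its caudal and rostral ventrolateral medulla (CVLM and RVLM) were sequenced as well. The 2 strains are inbred lines that differ across the genome, so a difference between them is a difference between 2 genetic backgrounds as well as between a line that becomes hypertensive and one that does not.

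The NTS is the first brainstem relay of the afferents from arterial baroreceptors and chemoreceptors and from the heart, lungs and gut. It projects to the CVLM, whose GABAergic neurons restrain the sympathetic premotor neurons of the RVLM, and glutamate is the main transmitter of its afferents. Its A2 neurons make noradrenaline, and the neighbouring dorsal motor nucleus of the vagus and the hypoglossal nucleus hold cholinergic motor neurons. SHRs carry many inherited differences in expression, among them in immune, lipid and ion channel genes.

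Library totals ranged from 6078848 to 13175234 counts. Markers of the NTS and dorsal vagal complex summed to 236 to 367 normalized counts (CPM, counts scaled to the size of the library) in SHRs and 358 to 480.1 CPM in WKY rats, with Th and Dbh present in every library. The name of each library ends in 1 or 2, a number whose meaning is not given. All 5 SHR libraries and WKY replicates 1 and 2 end in 1, whereas WKY replicates 3, 4 and 5 end in 2. On the first principal component, with 51.2% of the variance, WKY replicate 1 (-30.1) lay among the SHRs (-51.8 to 1.20) and away from the other 4 WKY libraries (20.1 to 43.3), which include replicate 2 at 26.2. In a fit of all 46 NTS libraries with the end number as a term, 1801 genes were higher and 1725 lower in libraries that end in 2. Within a strain and age the number varies only in WKY rats at 8 wk and in SHRs at 12 and 24 wk, so these counts rest on few libraries. WKY replicates 2 and 5 also held choroid plexus RNA, as the marker lists show. For these reasons the counts are also given without WKY replicate 1, without the 3 WKY libraries that end in 2, and without WKY replicates 2 and 5. The fit without the 3 WKY libraries that end in 2 keeps only WKY replicates 1 and 2 at this age, and replicate 1 lay among the SHRs. A gene may therefore fail to pass in that fit for lack of libraries.

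At 8 wk, 82 genes (0.595% of those tested) were called higher and 86 genes (0.624%) lower in SHRs, where a call needed a change of 2-fold or more and an adjusted p not above 0.01 in edgeR's quasi-likelihood test. Both directions together made up 1.22% of the tested genes. The changes reached 4-fold in 35 genes that were higher and 26 that were lower, and 16-fold in 14 and 7 genes. The 5 SHR and 5 WKY values did not overlap in 146 of these 168 genes, 73 of them higher and 73 lower, against 3.89% of all tested genes (2.08% higher and 1.81% lower). The calls were made from these same values, so the separation is a description and not independent evidence for them. At an adjusted p under 0.05 without a limit on size, 355 genes (2.57%) were higher and 443 (3.21%) lower, 5.79% in all, and the median log2 fold change of all tested genes was -0.03. Without WKY replicate 1, 106 genes were called higher and 175 lower. Without the 3 WKY libraries that end in 2, the calls fell to 64 higher and 48 lower, of which 94 were among the 168. Without WKY replicates 2 and 5, 77 were called higher and 75 lower. The number past an adjusted p of 0.05 depended more on single libraries, since it was 2229 without WKY replicate 1, 480 and 431 without SHR replicates 1 and 3, and 424 and 451 without WKY replicates 3 and 4. A group of 74 genes, 44 higher and 30 lower, was called in the main fit and in each of 18 alternative fits. All 168 kept their direction in each of these fits. The fits share libraries with the main fit by which the genes were chosen, so a kept direction is little evidence by itself.

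**Figure D1:**
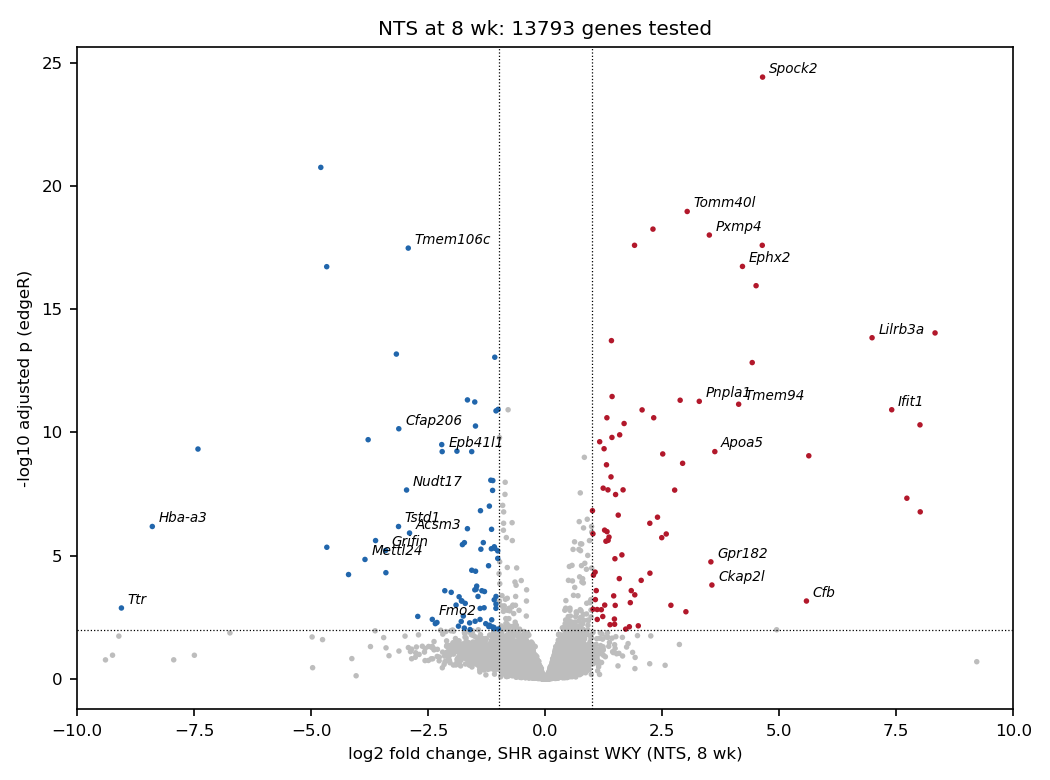
Log2 fold change (SHR against WKY, x axis) against -log10 of the adjusted p (y axis) for the 13793 genes tested in the NTS at 8 wk. Red and blue points are the 82 genes called higher and the 86 called lower in SHRs, dotted lines mark the limits of the call, and the named genes are 12 higher and 11 lower genes among the largest with an approved symbol.

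The genes with the largest excess in SHRs included immune, matrix and lipid genes. Ifit1, an interferon-induced protein that binds viral RNA, had 14.04, 11.5, 24.4, 13.4 and 23.4 CPM in the 5 SHRs. In WKY rats it had 0, 0, 0.15, 0.0864 and 0.204 CPM, so that every SHR lay far above every WKY rat, with a log2 fold change of 7.40 ± 0.60 (adjusted p = 1.2e-11). Lilrb3a, a leukocyte immunoglobulin-like receptor, showed the same separation, with 8.96 to 14.1 CPM in SHRs, 0 to 0.204 CPM in WKY rats and a log2 fold change of 6.98 ± 0.48 (adjusted p = 1.44e-14). Reads of both strains were mapped to 1 reference genome, and the part of mapping in the WKY values of these genes near 0 was not tested.

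Spock2, which encodes the matrix proteoglycan testican-2, had the smallest p of all genes. Its level was 285, 238, 279, 268 and 266 CPM in the SHRs and 14.1, 12.7, 11.2, 8.38 and 7.25 CPM in the WKY rats. The groups were 24.97-fold apart (log2 fold change 4.64 ± 0.15, adjusted p = 3.86e-25), and the spread within each was small beside this gap. Ephx2, the soluble epoxide hydrolase that breaks down epoxy fatty acids with vasodilator action, had 33.2, 36.4, 48.03, 33.4 and 36.1 CPM in SHRs. The WKY rats had 2.01, 2.15, 1.58, 1.81 and 2.55 CPM, again without overlap, a log2 difference of 4.21 ± 0.24 (adjusted p = 1.84e-17). SHR replicate 3 was the highest, and the difference without it and without each other library stayed between 4.13 and 4.33.

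Further genes called higher were Tmem94, a transmembrane protein, with 37.2 to 48.4 CPM in SHRs against 0.409 to 5.02 CPM and a log2 fold change of 4.13 ± 0.35 (adjusted p = 7.17e-12). Within the WKY group of Tmem94, the 2 libraries that end in 1 held 5.02 and 4.58 CPM and the 3 that end in 2 held 0.826, 1.295 and 0.409 CPM. Pxmp4, a peroxisomal membrane protein, was at 40.4 ± 5.02 CPM in SHRs and 3.61 ± 1.54 CPM in WKY rats (SD, n = 5 each), with a log2 fold change of 3.504 ± 0.18. Tomm40l, a homologue of the mitochondrial import channel, was at 49.2 ± 7.01 CPM in SHRs and 6.05 ± 1.66 CPM in WKY rats (log2 fold change 3.03 ± 0.14). Apoa5, an apolipoprotein of triglyceride metabolism, was low in both strains, with 6.23 to 7.82 CPM in SHRs and 0.223 to 0.675 CPM in WKY rats. Pnpla1, a patatin-like phospholipase, had 5.66 to 9.77 CPM against 0.306 to 1.12 CPM. The adjusted p was 9.85e-19 for Pxmp4, 1.09e-19 for Tomm40l, 5.99e-10 for Apoa5 and 5.47e-12 for Pnpla1 by edgeR, and each of them was called in all 18 alternative fits.

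The spindle protein gene Ckap2l and the chemokine receptor gene Gpr182 were expressed near the limit of detection. Ckap2l had 1.47 to 2.34 CPM in SHRs and 0 to 0.446 CPM in WKY rats, and its log2 fold change was 3.56 ± 0.63 (adjusted p = 0.000154). Gpr182 had 1.31 to 2.94 CPM against 0.0751 to 0.446 CPM, at 3.54 ± 0.56 (adjusted p = 1.77e-05). Without the 3 WKY libraries that end in 2 the adjusted p was 0.0547 for Ckap2l and 0.0362 for Gpr182, so neither was called in that fit.

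**Figure D2:**
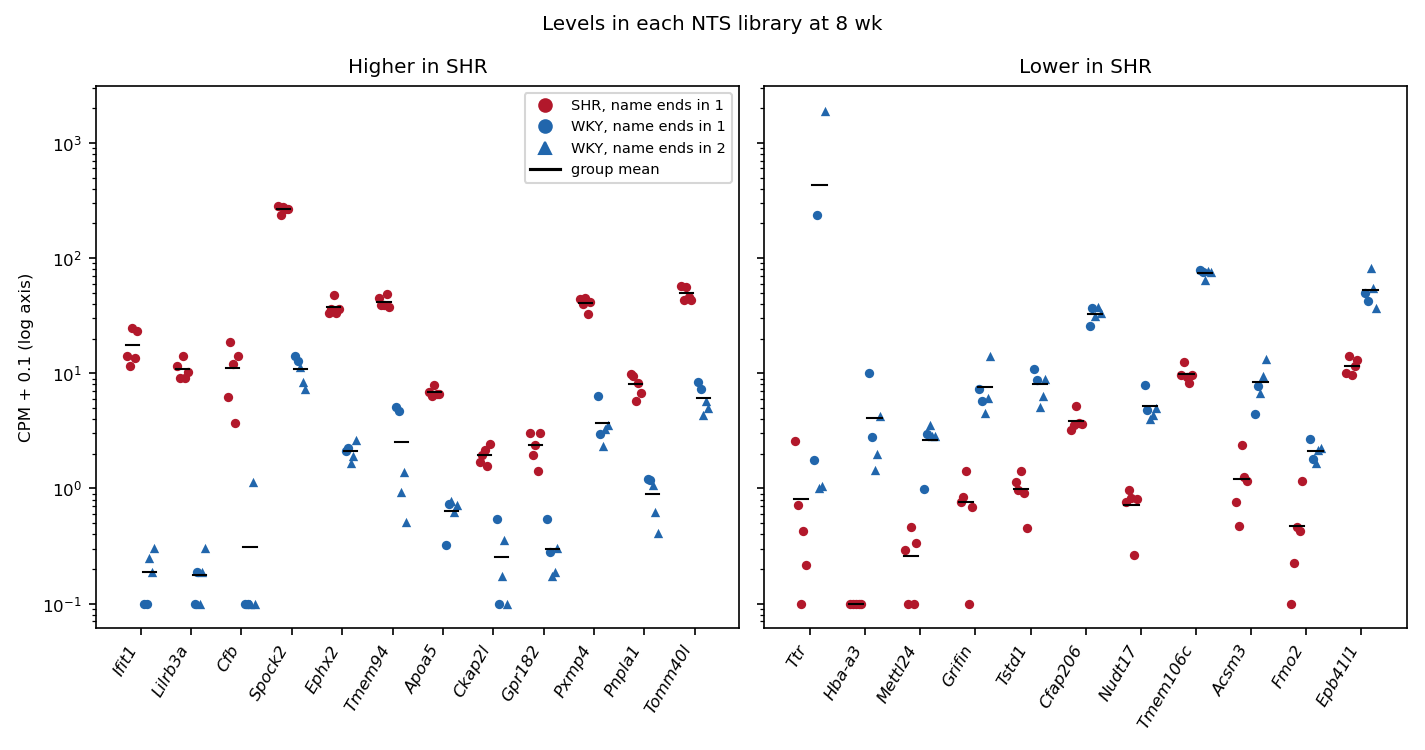
Level of 23 leading genes in each NTS library at 8 wk, as CPM plus 0.1 on a log axis (y), for 12 genes higher in SHRs (left) and 11 lower (right). Each point is 1 rat, triangles are the 3 WKY libraries whose name ends in 2, and lines are group means. The groups separate for every gene shown except Ttr.

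Among the genes lower in SHRs, Tmem106c, a membrane protein of the family of a lysosomal protein, had 9.58, 12.5, 9.15, 8.18 and 9.47 CPM in SHRs and 78.6, 75.996, 64.6, 77.5 and 75.99 CPM in WKY rats. This 7.61-fold difference (log2 fold change -2.93 ± 0.16, adjusted p = 3.33e-18) was the steadiest of the group, the 5 WKY values being close together. Cfap206, a protein of the ciliary axoneme, had 3.13, 3.49, 5.06, 3.597 and 3.51 CPM in SHRs. Its WKY values were 25.8, 36.9, 31.4, 37.6 and 32.99 CPM, with a log2 fold change of -3.13 ± 0.29 (adjusted p = 7.08e-11). Of 12 tested ependymal markers none passed, 1 had a log2 fold change above 0, and the median was -0.50. Without WKY replicates 2 and 5 that median was 0.10. The part of ependyma in the Cfap206 value was not tested. Epb41l1, the neuronal cytoskeletal protein 4.1N, was at 11.5 ± 1.902 CPM in SHRs and 53.03 ± 17.4 CPM in WKY rats (SD, n = 5 each), a log2 fold change of -2.20 ± 0.22 (adjusted p = 5.99e-10).

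Acsm3, a medium-chain acyl-CoA synthetase once studied as a hypertension candidate under the name SA, had 0.664, 0.374, 2.29, 1.14 and 1.05 CPM in SHRs and 4.35, 7.72, 6.605, 9.33 and 13.3 CPM in WKY rats. The groups did not overlap, and the log2 fold change was -2.90 ± 0.40 (adjusted p = 1.2e-06). The other low genes were at or under 13.9 CPM. They were Grifin, a galectin-related gene (-3.41 ± 0.51, adjusted p = 6.12e-06), the putative methyltransferase gene Mettl24 (-3.85 ± 0.60, adjusted p = 1.42e-05), Tstd1 of sulfur metabolism (-3.14 ± 0.42, adjusted p = 6.54e-07), the nudix hydrolase gene Nudt17 (-2.96 ± 0.34, adjusted p = 2.16e-08) and Fmo2, a flavin-containing monooxygenase (-2.41 ± 0.54, adjusted p = 0.00383). Fmo2 had an adjusted p of 0.0367 without the 3 WKY libraries that end in 2, whereas the calls of Grifin, Mettl24, Tstd1 and Nudt17 held in all 18 alternative fits.

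Ttr, which encodes transthyretin and marks choroid plexus epithelium, had 2.47, 0.623, 0, 0.327 and 0.117 CPM in SHRs and 1.67, 235, 0.901, 0.95 and 1907 CPM in WKY rats. Its log2 fold change of -9.06 ± 1.86 (adjusted p = 0.00132) rested on WKY replicates 2 and 5, the other 3 WKY rats being within or near the range of SHRs. Without these 2 libraries its log2 fold change was -0.51 and its adjusted p 0.893.

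In several genes one strain had no counts, and a fold change is then only a lower limit, set here at 3 counts summed over the group. Hba-a3, an alpha globin gene, had no count in any SHR and 9.93, 2.69, 1.35, 1.90 and 4.19 CPM in WKY rats, at least 50.5-fold higher in WKY rats. The other globin genes did not pass the test, with log2 fold changes of -0.22 for Hba-a1, -0.26 for Hba-a2 and -0.05 for Hbb. The globin copies are nearly identical, so that reads can be divided among them in counting. The clone-named gene AABR07044383.1 also had no count in SHRs (2.34, 2.24, 2.101, 1.73 and 1.63 CPM in WKY rats), at least 27.8-fold. In the opposite direction, LOC100910934 (1.99, 3.36, 4.81, 1.14 and 3.74 CPM) and AABR07007730.1 (2.85, 3.36, 3.25, 2.94 and 2.69 CPM) had no count in WKY rats and were at least 55.8-fold and 55.0-fold higher in SHRs. AABR07064061.1 had 44.8 to 57.1 CPM in SHRs and was detected in WKY replicate 5 alone (0.817 CPM). The more abundant provisional genes AABR07052523.1 and RGD1563294 were lower in SHRs, at 21.3 ± 2.34 CPM in SHRs and 594 ± 139.6 CPM in WKY rats and 8.88 ± 0.559 CPM in SHRs and 227 ± 106 CPM in WKY rats (SD, n = 5 each). In RGD1563294 the WKY libraries that end in 1 had 365 and 318 CPM and those that end in 2 had 147, 151 and 153 CPM.

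Complement genes were found in both directions. Of 23 tested rows of the complement list (Cfb has 2 rows), 2 were higher and 3 lower at an adjusted p under 0.05, with a median log2 fold change of 0.20. Both that were higher belong to the alternative pathway. Factor B (Cfb, ENSRNOG00000000419) had 6.16, 18.7, 12.04, 3.597 and 14.03 CPM in SHRs and 0, 0, 0, 1.04 and 0 CPM in WKY rats, detected in 1 of 5 WKY rats, with a log2 fold change of 5.58 ± 1.07 (adjusted p = 0.000688). The other Cfb row was not among those that passed. These values are of 1 row, and how reads were divided between the 2 rows was not tested. Factor D (Cfd), the protease that cleaves factor B, had 1.31 to 4.61 CPM against 0.525 to 1.67 CPM (1.34 ± 0.36, adjusted p = 0.0205). The proteases of the C1 complex and their substrate, which belong to the classical pathway, were lower. C1s had 7.21, 8.59, 12.04, 9.81 and 8.302 CPM in SHRs and 21.3, 22.4, 31.97, 26.9 and 26.4 CPM in WKY rats, without overlap (-1.49 ± 0.14, adjusted p = 5.49e-11). C1r was lower by a smaller step (-0.98 ± 0.15, adjusted p = 1.77e-05), and C4a was at 0.959 ± 0.562 CPM in SHRs and 3.48 ± 0.633 CPM in WKY rats (SD, n = 5 each; -1.84 ± 0.35, adjusted p = 0.000463). C1s, C1r and C4a remained past an adjusted p of 0.05 without the 3 WKY libraries that end in 2, while Cfd then had an adjusted p of 0.465.

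The genes of antigen presentation by MHC class I, called RT1 in the rat, were also found in both directions. Among 20 tested members, 4 were higher and 5 lower, and the median was -0.02. The classical gene RT1-A1 had 133, 115, 128, 108 and 127 CPM in SHRs and 32.3, 29.1, 20.2, 23.3 and 19.3 CPM in WKY rats. Its neighbour RT1-A2 had the reverse order, with 4.08, 2.74, 3.61, 2.78 and 2.34 CPM in SHRs and 8.81, 10.7, 7.96, 8.81 and 13.5 CPM in WKY rats. The log2 fold changes were 2.30 ± 0.12 (adjusted p = 5.66e-19) and -1.66 ± 0.22 (adjusted p = 8.02e-07). RT1-N2 and RT1-N3 were lower (-1.79 ± 0.35, adjusted p = 0.000679 and -0.80 ± 0.22, adjusted p = 0.0234). The immunoproteasome subunit Psmb8 and the loading factor tapasin (Tapbp) were higher (1.34 ± 0.15, adjusted p = 2.13e-08 and 1.03 ± 0.17, adjusted p = 6.16e-05). Tapbp in WKY replicate 1 (42.6 CPM) overlapped the SHR range of 41.4 to 64.8 CPM. With the 3 WKY libraries that end in 2 left out, Psmb8 passed (adjusted p = 0.000164), whereas Tapbp was at 0.45 (adjusted p = 0.17) and RT1-N3 had an adjusted p of 0.272. RT1 genes are near-identical copies, and reads of both strains were mapped to 1 reference genome, so the value of a single copy is uncertain. Of 5 tested MHC class II genes, RT1-Db1 was higher (2.25 ± 0.69 CPM in SHRs and 0.605 ± 0.394 CPM in WKY rats, SD, n = 5 each; 1.91 ± 0.36, adjusted p = 0.000386) and the others did not pass. RT1-Db1 had an adjusted p of 0.226 without those 3 libraries.

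Interferon-induced genes did not move as a group. Of 25 tested members, 2 were higher, 1 was lower, and the median log2 fold change was -0.09. Besides Ifit1, the membrane protein gene Ifitm2 was higher (0.71 ± 0.21, adjusted p = 0.0368), with 22.2 to 35.3 CPM in SHRs against 10.6 to 20.1 CPM, and it did not pass without the 3 WKY libraries that end in 2 (adjusted p = 0.352). Ifi44l was lower, with 0, 0.125, 0.12, 0 and 0.117 CPM in SHRs and 1.896, 1.35, 1.201, 1.47 and 1.84 CPM in WKY rats. Its 3 counts in all SHR libraries against 83 in WKY rats give 21.0-fold, with an exact 95% counting interval from 6.93 to 104. The promoters of the last 2 are shown because both windows hold a match to the core letters of the interferon response element, while the strain differences of the genes point in opposite directions. Capitals mark the core searched for, GAAA followed by 2 bases of any kind and GAAA again, on either strand, in RefSeq windows of the Brown Norway assembly GRCr8 from 250 bases before to 50 after the start.
Ifitm2 (chr1:205482299-205482598, strand -): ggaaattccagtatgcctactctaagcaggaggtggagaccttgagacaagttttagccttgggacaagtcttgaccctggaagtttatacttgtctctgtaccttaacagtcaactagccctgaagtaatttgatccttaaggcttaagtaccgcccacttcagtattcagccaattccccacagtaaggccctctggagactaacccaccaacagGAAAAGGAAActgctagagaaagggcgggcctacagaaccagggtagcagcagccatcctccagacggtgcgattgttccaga
Ifi44l (chr2:243328473-243328772, strand +): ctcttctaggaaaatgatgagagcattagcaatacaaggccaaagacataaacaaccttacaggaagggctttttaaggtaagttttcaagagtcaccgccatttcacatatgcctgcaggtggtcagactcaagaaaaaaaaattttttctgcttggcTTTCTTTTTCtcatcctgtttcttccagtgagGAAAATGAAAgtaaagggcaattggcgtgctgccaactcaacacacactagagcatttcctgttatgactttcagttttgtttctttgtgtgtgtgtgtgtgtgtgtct

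The core occurs in 3.92% of the 33469 promoter windows and in 13 of the 18 list members that have a window, most of which did not pass the test. Ifit1 has no entry. These are reference sequences, not those of the SHR or WKY lines, and a match is a description of letters only.

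Of 10 tested genes of catecholamine synthesis and transport, none was higher and 3 were lower, with a median log2 fold change of -0.57. Tyrosine hydroxylase (Th), the rate-limiting enzyme, had 134, 123, 102, 94.02 and 77.5 CPM in SHRs and 139, 149.7, 167, 159 and 164 CPM in WKY rats. All 5 SHRs lay under the lowest WKY rat (-0.56 ± 0.16, adjusted p = 0.0349). The vesicular monoamine transporter Slc18a2 had 38.1, 21.04, 38.5, 38.9 and 21.5 CPM in SHRs and 47.9, 37.6, 90.2, 57.5 and 60.6 CPM in WKY rats, overlapping through WKY replicate 2 (-0.90 ± 0.19, adjusted p = 0.00181). Gch1, which makes the cofactor of tyrosine hydroxylase, was at -0.99 ± 0.30 (adjusted p = 0.0453). Dopamine beta-hydroxylase (Dbh) did not pass (-0.57 ± 0.20, adjusted p = 0.0705). None of the 3 passed without the 3 WKY libraries that end in 2, with adjusted p values of 0.438 for Th, 0.474 for Slc18a2 and 0.722 for Gch1, and log2 fold changes of -0.45, -0.43 and -0.47. In punched tissue, fewer cells of a type and less RNA per cell cannot be told apart.

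Of 6 tested genes of acetylcholine synthesis, transport and breakdown, 1 was lower and the others did not pass. Choline acetyltransferase (Chat) had 47.99, 30.01, 32.5, 27.5 and 31.2 CPM in SHRs and 78.6, 65.05, 86.5, 26.2 and 52.9 CPM in WKY rats, where replicate 4 was below every SHR (-0.87 ± 0.27, adjusted p = 0.0471). This call held in 3 of 18 alternative fits, and the adjusted p was 0.0654 without WKY replicate 1, 0.0602 without the 3 WKY libraries that end in 2 and 0.0781 without WKY replicates 2 and 5. The log2 fold change of Chat without the 3 WKY libraries that end in 2 was -1.08. Summed markers of cholinergic motor neurons ran from 255 to 316 CPM in SHRs and from 289.8 to 815 CPM in WKY rats, and none of the 9 tested markers was above 0 in log2 fold change. The part of these cells in the result was not tested. Of 9 tested acetylcholine receptors, the nicotinic subunit Chrna5 was lower, with 0.759, 0.623, 0.241, 1.64 and 1.29 CPM in SHRs and 2.12, 6.01, 9.08, 8.205 and 3.57 CPM in WKY rats (-2.71 ± 0.71, adjusted p = 0.0162). Of 6 tested adrenergic receptors, the alpha-1D receptor Adra1d was lower, near the detection limit (-1.84 ± 0.52, adjusted p = 0.0284). Without the 3 WKY libraries that end in 2, the adjusted p was 0.28 for Chrna5 and 0.687 for Adra1d, whose log2 fold change was then -0.89.

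For glutamate, the transmitter of the baroreceptor afferents, none of 16 tested ionotropic receptor subunits passed, and their median log2 fold change was -0.15. The AMPA subunit Gria2 was at -0.26 ± 0.14 (adjusted p = 0.243) and the NMDA subunit Grin1 at -0.19 ± 0.23 (adjusted p = 0.637). The AMPA receptor auxiliary subunit Cacng5 was the clearest member of this system, with 9.58, 10.1, 8.91, 13.1 and 10.1 CPM in SHRs and 22.5, 33.02, 31.1, 27.03 and 20.1 CPM in WKY rats. It was lower by 2.597-fold (-1.38 ± 0.20, adjusted p = 5.44e-06), without overlap and in all 18 alternative fits. It was the 1 of 6 tested AMPA receptor partners to pass. Of 7 metabotropic receptors, Grm3 was higher (0.47 ± 0.12, adjusted p = 0.0163) and Grm7 lower (-0.51 ± 0.14, adjusted p = 0.0202). Neither passed without the 3 WKY libraries that end in 2, at log2 fold changes of 0.55 (adjusted p = 0.0793) and -0.40 (adjusted p = 0.366). None of 8 genes of glutamate supply and transport, 8 of GABA synthesis, transport and breakdown, or 8 of glycine receptors and transporters passed.

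Ion channel genes were lower in SHRs where they passed, apart from Kcne5. Over all tested genes, 2.57% passed as higher and 3.21% as lower. Of 31 tested voltage-gated potassium channel genes, 1 was higher and 4 lower (median -0.25). Kcnip3, a calcium-binding partner of Kv4 channels, had 15.7, 10.7, 13.1, 13.6 and 13.8 CPM in SHRs and 31.1, 26.6, 27.4, 23.1 and 27.5 CPM in WKY rats (-1.02 ± 0.15, adjusted p = 6.37e-06). Kcnd3, the Kv4.3 pore subunit, was lower as well (-1.09 ± 0.21, adjusted p = 0.000616). Both groups were apart, although the adjusted p of Kcnd3 was 0.165 without the 3 WKY libraries that end in 2, and that of Kcnip3 0.000285. Kcne5, a small inhibitory subunit, was higher, with 6.64, 6.23, 7.94, 3.43 and 7.25 CPM in SHRs and 3.23, 1.88, 1.65, 1.21 and 0.919 CPM in WKY rats (1.84 ± 0.34, adjusted p = 0.000261). When the 3 WKY libraries that end in 2 were left out, its log2 fold change was 1.31 and its adjusted p 0.166. Kcnma1, the large-conductance calcium-activated channel, was at -0.86 ± 0.24 (adjusted p = 0.0244), with an adjusted p of 0.586 without those 3 libraries. Kcne2 (-1.35 ± 0.40, adjusted p = 0.0392) was highest in WKY replicate 5, which held choroid plexus RNA, and it is also a marker of that epithelium.

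Of 22 inward rectifier, two-pore and HCN channel genes, 4 were lower and none higher. The leak channel Kcnk3 was among them (-1.46 ± 0.43, adjusted p = 0.0361), with 4.65, 5.73, 3.49, 5.56 and 6.198 CPM in SHRs and 6.36, 25.3, 16.9, 15.3 and 6.13 CPM in WKY rats, where replicate 5 lay within the range of the SHRs. Kcnk2 was at -0.69 ± 0.20 (adjusted p = 0.0363), and Kcnj13 at -3.74 ± 1.16 (adjusted p = 0.0485). Kcnj13 was highest in WKY replicates 5 (47.8 CPM) and 2 (5.74 CPM), and without WKY replicates 2 and 5 its log2 fold change was 4.28 (adjusted p = 0.156). Of 25 calcium channel, pump and release genes, 3 were lower. They were the auxiliary subunit Cacna2d1 (-1.10 ± 0.27, adjusted p = 0.00908), the N-type pore subunit Cacna1b (-0.71 ± 0.21, adjusted p = 0.0348) and the inositol trisphosphate receptor Itpr3 (-1.73 ± 0.44, adjusted p = 0.0133), of which Itpr3 alone passed without the 3 WKY libraries that end in 2 (adjusted p = 0.00686, against 0.455 for Cacna2d1 and 0.383 for Cacna1b). Of 11 sodium channels, Scn7a was lower (-1.10 ± 0.31, adjusted p = 0.0258). Of 25 genes of vesicle release, the synaptobrevin gene Vamp2 was lower (-0.48 ± 0.13, adjusted p = 0.0215), and of 17 regulators of G protein signalling, Rgs19 was (-0.44 ± 0.14, adjusted p = 0.047). The sodium channel, vesicle release and G protein signalling lists passed at 9.09%, 4.0% and 5.88%, against 5.79% of all tested genes. Kcnk2, Kcnk3, Scn7a, Vamp2 and Rgs19 did not pass without the 3 WKY libraries that end in 2, with adjusted p values of 0.272, 0.124, 0.386, 0.272 and 0.371. Their log2 fold changes in that fit, in the same order, were -0.66, -1.64, -0.83, -0.45 and -0.40.

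No neuropeptide passed among 28 tested, and their median was -0.08. Somatostatin (Sst) was at 0.74 ± 0.34 (adjusted p = 0.175) and cholecystokinin (Cck) at 0.54 ± 0.23 (adjusted p = 0.143). Of 36 neuropeptide receptors, the shared receptor of calcitonin gene-related peptide and adrenomedullin, Calcrl, was higher (0.70 ± 0.20, adjusted p = 0.0276). It had 57.4, 37.5, 52.5, 60.01 and 56.9 CPM in SHRs and 17.96, 20.01, 41.6, 45.3 and 37.3 CPM in WKY rats, and it passed without the 3 WKY libraries that end in 2, at a log2 fold change of 1.48 (edgeR adjusted p = 5.33e-05), and did not pass without WKY replicates 2 and 5, at 0.59 (adjusted p = 0.109). In the renin-angiotensin system, of which 13 genes were tested, angiotensin-converting enzyme (Ace) had 17.4, 17.9, 9.99, 19.3 and 15.8 CPM in SHRs and 19.9, 31.6, 37.1, 25.5 and 44.3 CPM in WKY rats, without overlap (-0.98 ± 0.19, adjusted p = 0.000688). Ace is also expressed in choroid plexus, and its adjusted p was 0.0261 without WKY replicates 2 and 5 and 0.172 without the 3 WKY libraries that end in 2. The angiotensin receptor Agtr1a (-0.15 ± 0.20, adjusted p = 0.68) and angiotensinogen (Agt, 0.27 ± 0.12, adjusted p = 0.165) did not pass. None of 13 genes of endothelin and nitric oxide signalling passed.

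Of 13 tested candidate genes of hypertension in the SHR, Ephx2 and Acsm3 passed, with the values given for them. Of 30 genes of oxidative stress and detoxification, 3 were higher and none lower (median 0.18). Besides Ephx2 they were catalase (Cat, 0.43 ± 0.09, adjusted p = 0.00134) and the cytosolic superoxide dismutase (Sod1, 0.54 ± 0.16, adjusted p = 0.0358). Cat remained past the test without the 3 WKY libraries that end in 2 (adjusted p = 0.00462) and Sod1 did not (0.618). None of 17 inflammatory signalling genes passed.

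Insr, the insulin receptor, was the 1 of 14 genes of the IGF system to pass. It had 6.83, 7.22, 7.58, 8.503 and 5.38 CPM in SHRs and 20.1, 21.5, 20.9, 13.9 and 12.4 CPM in WKY rats (-1.32 ± 0.19, adjusted p = 2.94e-06), without overlap and in all 18 alternative fits. In the retinoic acid pathway (14 genes), the retinaldehyde dehydrogenase gene Aldh1a1 was higher, with 106, 100.1, 128, 98.4 and 122 CPM in SHRs and 55.8, 49.5, 60.3, 76.2 and 98.1 CPM in WKY rats (0.71 ± 0.17, adjusted p = 0.00708), while Rarb (-0.43 ± 0.12, adjusted p = 0.0276) and Rdh10 (-0.94 ± 0.29, adjusted p = 0.0481) were lower. In myelin and cholesterol synthesis (18 genes), lanosterol synthase (Lss) was lower (-0.86 ± 0.10, adjusted p = 3.25e-08), and Dhcr7 (0.36 ± 0.10, adjusted p = 0.0191) and Fdft1 (0.28 ± 0.09, adjusted p = 0.0494) were higher by small steps. Fkbp5, a target of the glucocorticoid receptor (-1.53 ± 0.41, adjusted p = 0.0174), was the 1 of 11 in its list to pass, and Npas2 (-1.26 ± 0.35, adjusted p = 0.0229) the 1 of 16 in the clock list. Col6a1 was higher (0.81 ± 0.25, adjusted p = 0.0449) among 33 genes of perineuronal nets and collagens. When those 3 libraries that end in 2 were left out, Insr, Aldh1a1 and Lss passed, whereas the adjusted p was 0.925 for Rarb, 0.758 for Rdh10, 0.663 for Dhcr7, 0.782 for Fdft1, 0.308 for Fkbp5, 0.231 for Npas2 and 0.0813 for Col6a1. In the same order from Rarb to Col6a1, the log2 fold changes were then -0.07, -0.40, 0.17, 0.11, -1.24, -1.14 and 1.15. None of 11 immediate early genes and 15 Hox genes passed. Of 74 tested genes that the study discusses for its NTS, 3 were higher and 6 lower, and since that list was drawn from these rats, the count is not independent evidence. Over all the gene lists and marker lists, 74 genes passed. Of the 70 of these that were recomputed, 26 also passed without the 3 WKY libraries that end in 2, 42 without WKY replicates 2 and 5 and 69 without WKY replicate 1, each time with the same sign. The first of these fits keeps only WKY replicates 1 and 2 at 8 wk, so not passing in it does not show that a difference is absent.

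Of 82 tested cytosolic ribosomal protein genes, 81 had a log2 fold change above 0 (median 0.38), against 46.2% of all tested genes, and 1 passed the test. That gene was Rpl30, with 32.7, 48.6, 67.04, 38.3 and 41.3 CPM in SHRs and 18.3, 8.52, 9.61, 14.3 and 22.9 CPM in WKY rats (1.64 ± 0.25, adjusted p = 9.25e-06), a family in which near-identical copies can share reads. Of 78 oxidative phosphorylation genes, 72 were above 0 (median 0.27) and none passed. The ribosomal sum was 7080.2, 10525, 11699, 7762 and 8706 CPM in SHRs and 10732, 7002, 4711, 5889 and 7153 CPM in WKY rats, so WKY replicate 1 was at the level of the SHRs. Without it, 47 ribosomal and 25 oxidative phosphorylation genes passed, all higher in SHRs. Without the 3 WKY libraries that end in 2, the medians were 0.05 and 0.13. Over the tested genes with a RefSeq match (92.1%), the median log2 fold change fell with the length of the gene, being 0.07, 0.01, -0.07 and -0.15 from the shortest to the longest of 4 equal groups. In the longest group 35 genes passed as higher and 148 as lower, against 93 and 65 in the shortest. The part of gene length in the channel and ribosomal values was not tested.

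**Figure D3:**
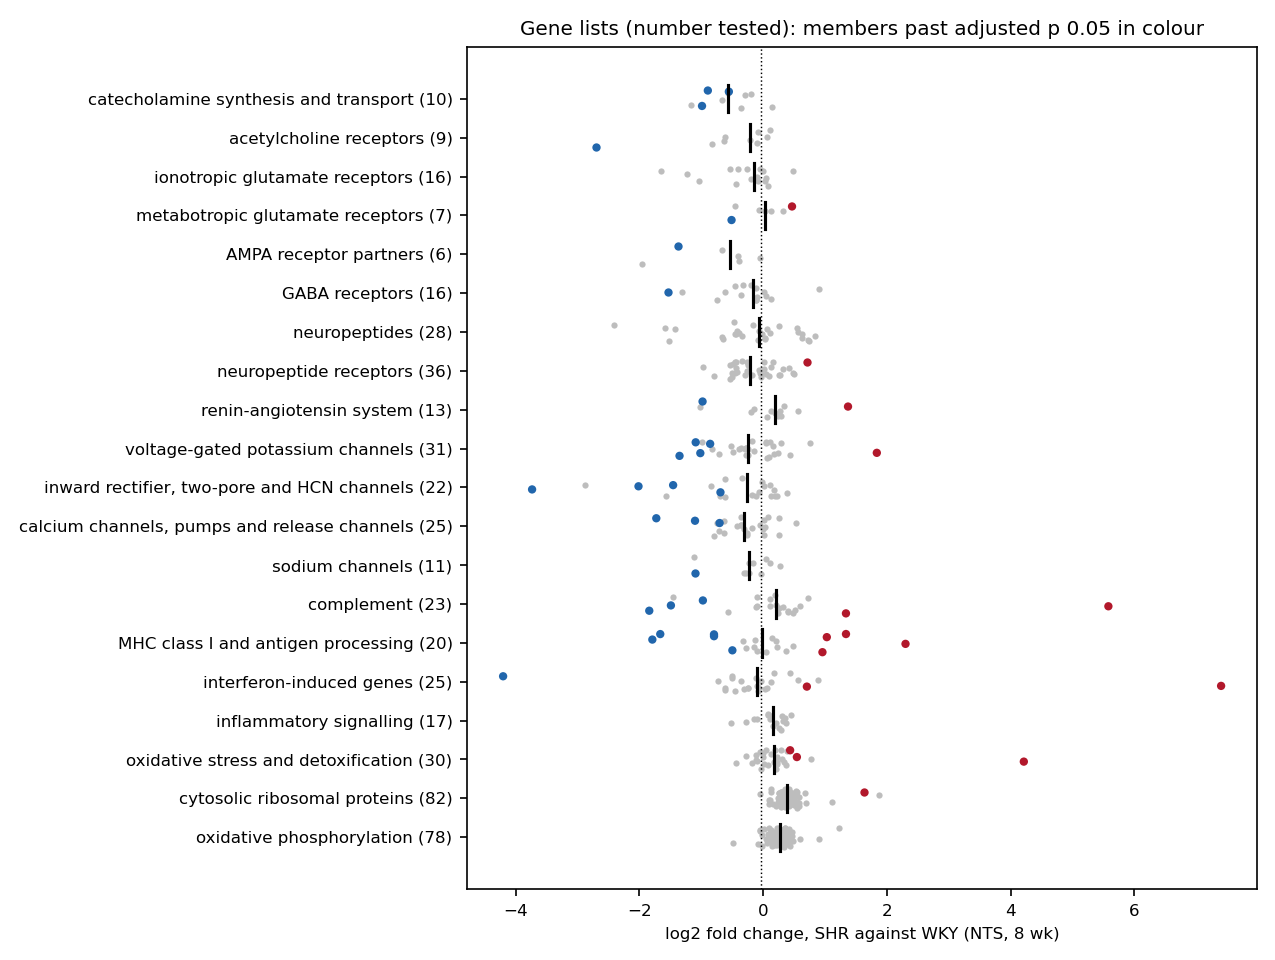
Log2 fold change (SHR against WKY, x axis) of the tested members of 20 gene lists in the NTS at 8 wk. Each point is a gene, red and blue points passed an adjusted p of 0.05, black bars are list medians and the dotted line is the median of all tested genes (-0.03). Ribosomal and oxidative phosphorylation genes lie mostly to the right without passing, while complement and MHC class I genes passed on both sides.

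Markers of other cells moved with single libraries. The 16 choroid plexus markers summed to 321, 305, 332, 345 and 369 CPM in SHRs and 241, 483, 292, 360.1 and 2729 CPM in WKY rats, so the sum stood out in WKY replicate 5, while Ttr also did in replicate 2. None of 14 tested markers was higher and 6 were lower, namely Ttr, Kcne2, Kcnj13, Clic6 (-2.997 ± 0.79, adjusted p = 0.0182), Sostdc1 (-4.98 ± 1.33, adjusted p = 0.0197) and Cldn2 (-4.76 ± 1.32, adjusted p = 0.0253). Without WKY replicates 2 and 5, 0 of them passed. Red blood cell genes summed to 2197, 949, 507, 609 and 972 CPM in WKY rats, highest in replicate 1, and 759 to 1192 CPM in SHRs. Leptomeningeal markers summed to 426 to 699 CPM in SHRs and 232 to 479 CPM in WKY rats, and Ptgds was the 1 of 10 that passed (0.86 ± 0.23, adjusted p = 0.0168), though not without the 3 WKY libraries that end in 2 (adjusted p = 0.509). The cerebellar markers were low in all libraries (16.4 to 21.4 CPM in SHRs and 18.4 to 22.98 CPM in WKY rats).

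Glial genes differed in single members. S100b, a calcium-binding protein of astrocytes and some oligodendrocytes, had 1392, 1609.5, 1804, 1408 and 1525 CPM in SHRs and 2645, 2639, 2702, 3496 and 3773 CPM in WKY rats. It was lower by 1.97-fold (-0.98 ± 0.09, adjusted p = 1.62e-10), without overlap and in all 18 alternative fits, while the other 12 of 13 astrocyte markers did not pass and their list median was 0.01. Of 14 oligodendrocyte markers, Cldn11 (1.02 ± 0.21, adjusted p = 0.00148) and Mal (0.57 ± 0.16, adjusted p = 0.0206) were higher. Among 14 microglial markers, Trem2 was higher (0.73 ± 0.18, adjusted p = 0.0099). On leaving out the 3 WKY libraries that end in 2, Cldn11 passed (adjusted p = 0.00668), and Mal (0.0918) and Trem2 (0.269) did not. The log2 fold change was then 0.70 for Mal and 0.62 for Trem2. Tagln, an actin-binding protein of smooth muscle, had 15.5, 22.8, 23.2, 17.99 and 25.8 CPM in SHRs and 8.03, 8.08, 6.53, 5.7001 and 7.46 CPM in WKY rats (1.56 ± 0.20, adjusted p = 2.26e-07), as the 1 of 9 pericyte and smooth muscle markers to pass. No marker passed among those of endothelium (11 tested), ependyma (12), oligodendrocyte precursors (7), perivascular macrophages (3), serotonergic neurons (2) and neurons in general (10).

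The same contrast at the other 4 ages came from other rats. At 10, 12, 16 and 24 wk there were 4, 3, 3 and 3 WKY rats and 5, 6, 6 and 6 SHRs. All ages shared 1 fit, with 1 filter and 1 estimate of the spread of each gene. The values at those ages were separate, but the calls were not independent of those at 8 wk. Of the 168 genes, 163 and 165 had the same direction at 10 and 12 wk, as did 165 and 163 at 16 and 24 wk, where 46.2% to 53.4% of all tested genes did. They were called in that direction in 109, 99, 95 and 99 cases, against 1.25%, 1.21%, 0.805% and 0.986% of all tested genes called at these ages. Calls at all 5 ages were made for 79 of them, 36 higher and 43 lower. The median log2 fold change of the 82 genes higher at 8 wk (1.76 there) was 1.65, 1.33, 1.51 and 1.57 at 10, 12, 16 and 24 wk. That of the 86 lower genes (-1.57) was -1.26, -1.29, -1.24 and -1.32. For Spock2 the log2 fold change was 4.29, 4.14, 4.29 and 4.23 at these ages, and for Tmem106c -2.51, -2.72, -2.83 and -2.91.

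**Figure D4:**
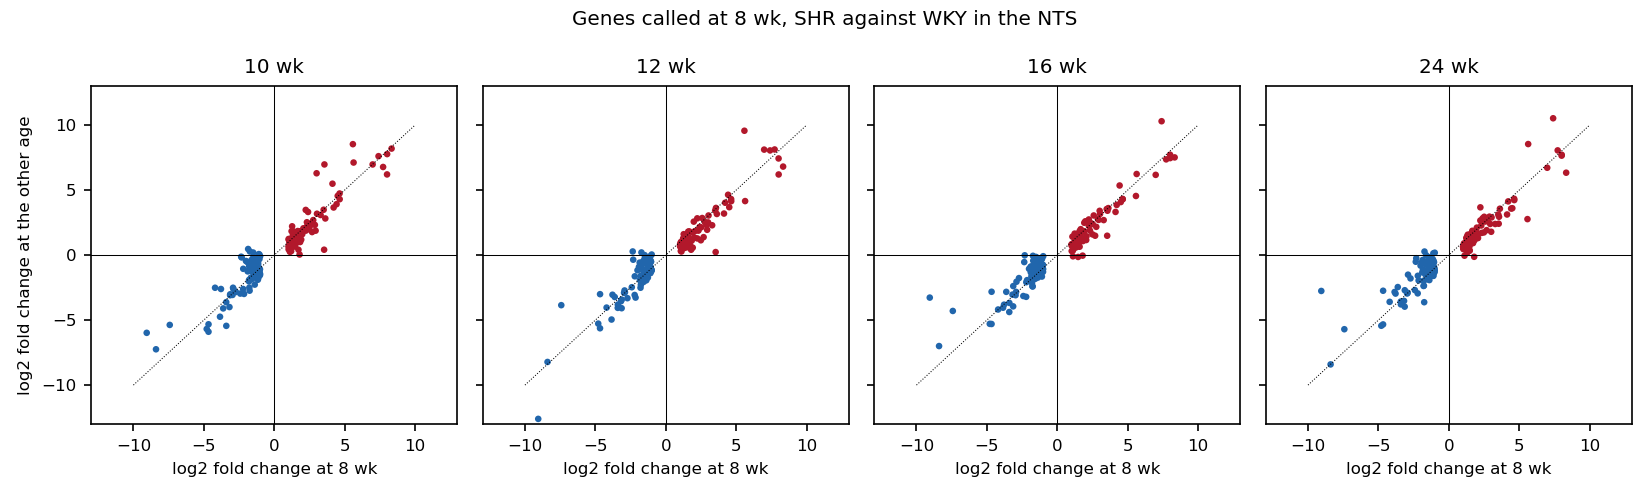
Log2 fold change (SHR against WKY in the NTS) of the 168 genes called at 8 wk (x axis) against the same at 10, 12, 16 and 24 wk (y axes). Red genes were higher and blue genes lower at 8 wk, and the dotted line marks equal values. Nearly all points fall in the quadrants of equal sign, 163 to 165 of 168 at each age.

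A subset of 46 of the 168 genes, 22 higher and 24 lower, was called at 8 wk and at none of the other ages. Those ages had fewer WKY rats, and 172, 167, 111 and 136 genes were called at 10, 12, 16 and 24 wk. The subset was picked by its 8 wk calls, and the part of group size and of this choice was not tested. Several of the 46 genes had log2 fold changes close to 0 at the other ages. Cdk17, a cyclin-dependent kinase, was at -1.73 ± 0.42 (adjusted p = 0.00859) at 8 wk and at 0.27, 0.20, -0.06 and 0.27 later, and Cacna2d1 was at 0.07, -0.09, -0.21 and 0.13. Others, such as the glycolytic enzyme gene Eno1 (1.26 ± 0.12, adjusted p = 4.58e-10), kept a smaller difference at every later age (0.71, 0.80, 0.90 and 0.85). Cdk17 and Eno1 were picked from this subset after their values were seen.

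The difference between ages was itself tested, as the strain effect at 8 wk against the mean of the other 4 ages. No gene passed an adjusted p of 0.05 in edgeR (0.0%), 3134 had an unadjusted p under 0.05, and DESeq2 called 473. Without WKY replicate 1, edgeR called 2063 genes, so the count depended on that library. Without the 3 WKY libraries that end in 2, edgeR called 1. The smallest p values were those of Cirbp, an RNA-binding protein induced by cold, whose strain effect at 8 wk was 0.91 above the mean of the others (adjusted p = 0.0895), Asb13 (0.69), the O-GlcNAcase gene Oga (-1.08), the forkhead factor gene Foxj3 (-1.25) and the dynein subunit gene Dync1li1 (0.66). Asb13 was at 26.3 ± 2.26 CPM in SHRs and 16.6 ± 2.58 CPM in WKY rats (SD, n = 5 each) at 8 wk, and its strain difference lay between -0.19 and 0.04 at the other ages.

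The 3 regions came from the same rats, and the strain difference in the NTS was tested against that in the RVLM and in the CVLM with the rat as a block. The values of each region come from a fit of that region alone, so the tested difference is not exactly the gap between them. It differed from the RVLM in 84 genes towards higher and 54 towards lower values in the NTS (0.983% together) and from the CVLM in 7 genes (0.0498%). The strongest was Aldh1a1, which was higher in SHRs in the NTS (0.71 ± 0.17) and lower in the CVLM (-0.62 ± 0.10) and RVLM (-0.65 ± 0.13). The difference was 1.39 ± 0.17 (adjusted p = 4.87e-08) from the RVLM and 1.37 ± 0.17 (adjusted p = 9.96e-08) from the CVLM, and both held in every alternative fit.

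Among the other genes, C1r and C1s were lower in the NTS and not in the RVLM, where their log2 fold changes were 0.32 ± 0.17 and -0.15 ± 0.20, a difference of -1.26 ± 0.22 (adjusted p = 0.000419) and -1.36 ± 0.24 (adjusted p = 0.000644). The CVLM had -0.86 for C1r and -0.81 for C1s. Cystathionine beta-synthase (Cbs), which makes hydrogen sulfide, was higher in all regions, but less in the NTS (0.81 ± 0.14) than in the RVLM (2.03 ± 0.19), by -1.20 ± 0.19 (adjusted p = 0.000196). Pbld1 was higher by more in the NTS (2.88 ± 0.24) than in the RVLM (1.52 ± 0.14), by 1.39 ± 0.24 (adjusted p = 0.000503). LOC363337 was lower in the RVLM (-2.85 ± 0.25) and not past the test in the NTS (-0.57 ± 0.30), a difference of 2.28 ± 0.39 (adjusted p = 0.000419). The troponin gene Tnnc2 had 1.48 ± 0.33 in the NTS and -0.68 ± 0.26 in the RVLM, 1.98 ± 0.35 (adjusted p = 0.000503) apart. In the RVLM by itself it did not pass (edgeR adjusted p = 0.0874), at 15.0 ± 1.36 CPM in SHRs and 24.2 ± 17.2 CPM in WKY rats (SD). The CVLM had 0.41 ± 0.19, which did not pass either. In the NTS the groups overlapped, with a lowest SHR of 5.69 CPM and a highest WKY rat of 6.94 CPM.

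Against the CVLM, Igfbp5, a binding protein of insulin-like growth factors, had opposite signs, with -1.47 ± 0.53 in the NTS, where it did not pass by itself, and 2.13 ± 0.24 in the CVLM. The difference was -3.44 ± 0.52 (adjusted p = 3.73e-05). The homeobox gene Pbx3 was lower in SHRs in both, but less in the NTS (-0.89 ± 0.12, a difference of 0.82 ± 0.15, adjusted p = 0.00218), and the plakophilin gene Pkp1 was higher in both, by less in the NTS (2.40 ± 0.31, -2.52 ± 0.50, adjusted p = 0.00875). The Pkp1 difference passed in 8 of 13 alternative fits. The telomere protein gene Terf2ip was lower in the NTS (-0.71 ± 0.09) and did not pass in the RVLM (-0.13 ± 0.09) or the CVLM (-0.16 ± 0.07). Its difference was -0.56 ± 0.11 (adjusted p = 0.00473) from the RVLM and -0.52 ± 0.11 (adjusted p = 0.0261) from the CVLM. The former passed in 11 of 12 alternative fits and the latter in 3 of 13. The difference from the CVLM also passed by little for Vxn (0.51 ± 0.11, adjusted p = 0.0261) and Cd9 (0.66 ± 0.14, adjusted p = 0.0365), each in 3 of 13 alternative fits. It did not pass for Tp53bp2 (0.53 ± 0.13, adjusted p = 0.11).

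The number of genes that differed from the RVLM varied with every rat left out. It was 1121 without SHR replicate 1, 28, 18, 42 and 21 without SHR replicates 2 to 5, and 1641, 33, 13, 83 and 1163 without WKY replicates 1 to 5. With the 8 wk libraries alone it was 9. Against the CVLM it was 4 or fewer without SHR replicates 2 or 5 or WKY replicates 2, 4 or 5 (lowest 3), and 3 without the 2 CVLM libraries whose age labels conflict.

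**Figure D5:**
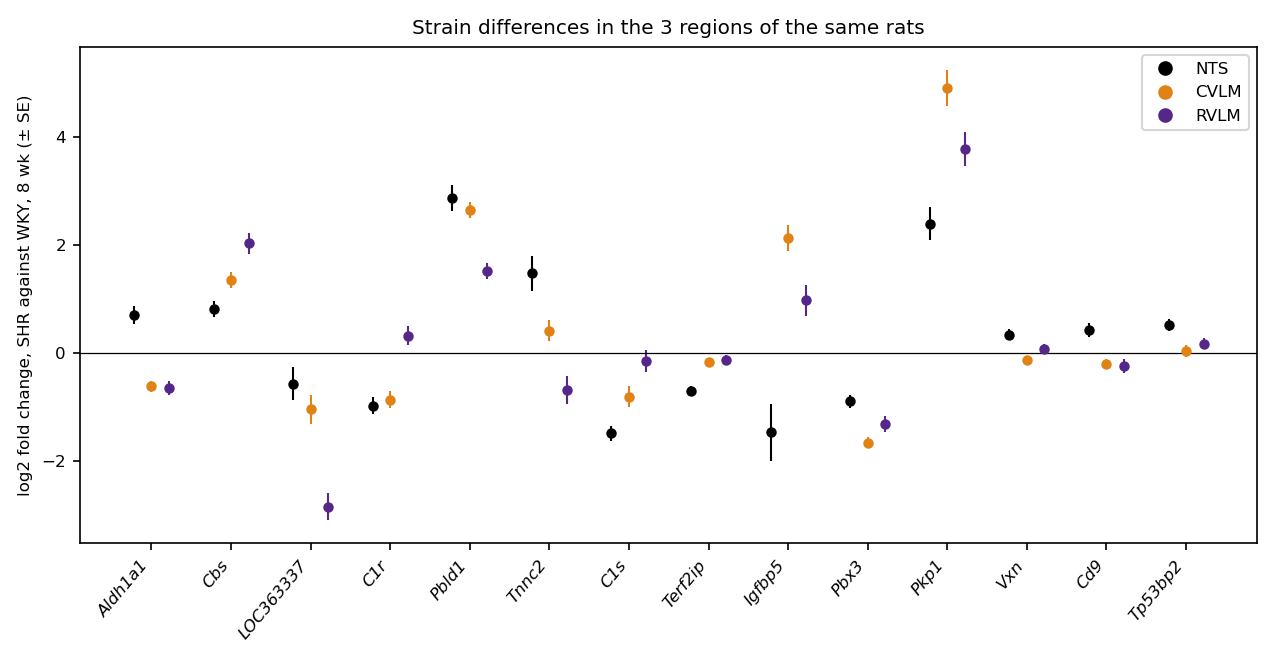
Log2 fold change (SHR against WKY at 8 wk, y axis, bars are SE) in the NTS, CVLM and RVLM for the 14 genes with the smallest adjusted p for a difference between the NTS and another region. Aldh1a1 and Igfbp5 differ in sign between the NTS and the other regions, whereas Cbs, Pbld1, Pbx3 and Pkp1 share a sign and differ in size.

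By symbol, 12700 tested genes, 139 of the 168 called genes among them, were placed in the order of the RefSeq annotation of GRCr8. In this order, which skips untested and unmatched genes, 8 genes were next to another called gene. How many neighbours would arise by chance was not tested. They formed 4 pairs, of which 3 are given. The semaphorin gene Sema3c (-1.51 ± 0.28, adjusted p = 0.000242) and Cacna2d1 were both lower in SHRs, whereas RT1-A1 and RT1-A2 differed in direction, as did the tropomyosin gene Tpm2 (1.11 ± 0.23, adjusted p = 0.00152) and Arhgef39 (-1.08 ± 0.16, adjusted p = 5.02e-06). Without the 3 WKY libraries that end in 2 the adjusted p was 0.183 for Sema3c and 0.243 for Tpm2.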

How the data were processed

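RNA of NTS, CVLM and RVLM punches was sequenced in 46 rats, with 1 library per rat and region. Per the labels and the study's methods, the authors aligned paired-end reads to rn6 with STAR and made the deposited expected counts per gene with RSEM. A batch adjustment is named in the methods, and whether the deposited tables hold it is not given in the sources used here (5.02% of the NTS values are not whole).

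The expected counts were rounded to whole numbers. Genes with a maximum regularised log2 value of at least 3.5 were kept. The 46 NTS libraries were fitted together by strain and age in edgeR 4.0.16 (R 4.3.3, TMM normalization, robust quasi-likelihood test) with Benjamini-Hochberg adjustment, and SHR was compared with WKY at 8 wk. A call needed an adjusted p of at most 0.01 and a 2-fold change, whereas list members were counted at an adjusted p under 0.05. CPM values are TMM-normalized and values after ± are SE for log2 fold changes and SD for CPM. The 3 regions were fitted in 1 model with the rat as a block. Alternatives used DESeq2 1.42.0, other scalings and filters, the end number of the library names, and fewer libraries. The procedure was tested on simulated data. The named genes were the 12 largest called changes each way with an approved symbol, 3 each way with a provisional name, the list members that passed, and the smallest p values of the age and region tests. Some genes that these rules name are not reported here. The members and lists were chosen with earlier results of these data known. Each library is a separate rat, library totals of 6078848 to 13175234 counts limit the low genes, and counting intervals cover counting error only.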

Additional observations from a re-analysis of the deposited data

Results flagged for a closer look

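Of 201 groups of 5 libraries examined for the named genes, 24 held 1 value far from the others by Dixon's criterion, which flags about 1 in 20 groups by chance. WKY replicate 5 was the highest for the choroid plexus genes Ttr (1907 CPM), Kcnj13 (47.8 CPM), Sostdc1 (28.9 CPM), Clic6 (25.2 CPM), Cldn2 (16.1 CPM) and Kcne2 (12.4 CPM), and also for Rgs19 (41.8 CPM). SHR replicate 1 stood apart for Ttr (2.47 CPM), Kcne2 (2.75 CPM) and Chat (48.0 CPM). SHR replicate 3 did for Ephx2 (48.0 CPM), Igfbp5 (40.1 CPM), Rdh10 (6.5 CPM), Cfap206 (5.06 CPM) and Arhgef39 (3.61 CPM). Single values of other SHR libraries were Cbs (58.9 CPM) and Cacng5 (13.1 CPM) in replicate 4. In WKY rats they were Nudt17 (7.81 CPM) and Mettl24 (0.892 CPM) in replicate 1, Vxn (67.2 CPM) in replicate 2, Tmem106c (64.6 CPM), Grm7 (36.5 CPM) and Scn7a (9.38 CPM) in replicate 3, and Cfb (1.04 CPM) in replicate 4.

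Of the genes whose strain difference differed between regions in the test of the difference itself, 13 are named. On the log2 scale, the NTS minus RVLM value was 1.39 for Aldh1a1, 1.39 for Pbld1, 2.28 for LOC363337, 1.98 for Tnnc2, -1.20 for Cbs, -1.26 for C1r, -1.36 for C1s and -0.56 for Terf2ip. The NTS minus CVLM value was 1.37 for Aldh1a1, -3.44 for Igfbp5, 0.82 for Pbx3, -2.52 for Pkp1, 0.51 for Vxn, -0.52 for Terf2ip and 0.66 for Cd9.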

How the results depend on the processing

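All 168 genes called at 8 wk kept their direction in each of the 18 fits with another tool, scaling, filter, term or set of libraries, and 74 were called in all of them. These fits share libraries with the main fit by which the genes were chosen, so they are not independent of it. The number called was 102 (42 lower) with the 8 wk libraries fitted alone, 61 (35 higher, 26 lower) at a log2 fold change of at least 2, and 326 (220 lower) at an adjusted p under 0.05. DESeq2 called 130 genes lower, and 48 were called lower without the 3 WKY libraries that end in 2. Leaving out 1 library gave 143 to 281 calls, 73 to 106 of them higher and 67 to 175 lower. Past an adjusted p of 0.05 there were 208 genes (106 higher, 102 lower) with the 8 wk libraries alone, 321 (170 higher, 151 lower) with the end number as a term, and 251 (139 higher, 112 lower) without the 3 WKY libraries that end in 2. Without a filter on low counts 266 were lower, and without WKY replicates 2 and 5, a choice made after seeing the data, 225 were higher. Leaving out 1 library gave 424 to 2229 genes, 224 to 1106 of them higher and 196 to 1123 lower, the highest without WKY replicate 1. The strain difference at 8 wk differed from the other ages in 473 genes by DESeq2, in 1 gene without the 3 WKY libraries that end in 2, and in 0 to 2063 on leaving out 1 library. Genes that differed between NTS and RVLM numbered 9 with the 8 wk libraries alone, 5 without the 3 WKY rats whose libraries end in 2, and 13 to 1641 on leaving out 1 rat. Between NTS and CVLM they numbered 2, 2 and 3 to 7, and 3 without the 2 CVLM libraries with conflicting labels. Without WKY replicates 2 and 5, the log2 fold changes of Sostdc1 (0.64) and Kcnj13 (4.28) reversed. Apart from where fewer libraries were fitted, the cause was not tested. With the replicate number as a block, 171 genes were called, 160 of them among the 168. Deviations of libraries with the same number correlated at 0.50, 0.56, -0.36, 0.34 and 0.03 for replicates 1 to 5, so the numbers were not taken to pair the rats. Depth limits the genes near 1 CPM.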
